A study of Arabidopsis thaliana with 18 samples.

Results

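Potassium enters and leaves plant cells through voltage-gated Shaker channels and, when it is scarce outside, through carriers of the KUP/HAK/KT family. The transcripts of 6 such genes were followed across roots and shoots of Arabidopsis thaliana exposed to the rare earth elements lanthanum (La) or ytterbium (Yb): the carrier gene HAK5 and the Shaker channel genes AKT1, AKT2, KC1, SKOR and GORK. They were picked out by locus identifier as known potassium genes, with earlier results of these data known, and all 6 were found among the 28991 genes of each of the root and shoot tables. The symbols are those in common use for these loci.

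In roots, AKT1 is the main inward channel of epidermal and cortical cells, KC1 is a regulatory subunit that carries no current alone and assembles with AKT1, and HAK5 is the high-affinity potassium-proton symporter that is induced by potassium shortage. The protein kinase CIPK23, held at the plasma membrane by the calcium sensors CBL1 and CBL9, phosphorylates and activates AKT1 and HAK5. SKOR is an outward channel of the root stele that releases potassium into the xylem sap, GORK is the outward channel of guard cells that also works in root hairs and epidermis, and AKT2 is a weakly rectifying channel of the phloem.

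The plants were wild type of the Col-0 accession, 6 weeks old, grown in hydroponic culture. They received 5 µM La or 5 µM Yb as the chloride salts for 72 h, or neither (control), and every group, the control included, stood in nutrient solution without phosphate during those 72 h. Potassium nitrate and potassium chloride are among the salts that the labels list for the complete solution, so potassium was not described as withheld. Roots and shoots were separated, 3 plants were pooled into each replicate, and each of the 6 groups held 3 libraries of polyadenylated RNA, 18 in all.

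Root libraries held 12.8 to 16.22 M recovered reads and shoot libraries 12.44 to 16.35 M. All levels are in reads divided by the library's size factor (0.9015 to 1.1446 in roots, 0.8775 to 1.1662 in shoots), so that they compare libraries of the same tissue but not the tissues with each other. The tissue labels held: 5 green-tissue markers summed to 133 to 427 in root libraries and 314885 to 431073 in shoot libraries, and 13 root hair markers summed to 770 to 8541 in roots and 59.7 to 91.3 in shoots. Whole tissues were sequenced, so fewer cells of a type and less RNA per cell cannot be told apart. Where groups of 3 libraries are said to overlap or not, that is a description. The share of all genes without overlap was not counted. In roots 4300 of 22729 tested genes passed an adjusted p of 0.05 for La against control (limma, Benjamini-Hochberg over all genes tested), 282 for Yb against control and 1466 for La against Yb. In shoots, 21967 genes were tested and the counts were 19, 9 and 2. The Yb count in roots depended on each of the 6 libraries, from 8 without Yb replicate 1 to 1141 without Yb replicate 3. The La count was 2588 without La replicate 2 and 2694 without control replicate 3, and the La-against-Yb count was 250 to 594 without La replicate 2 or 3 or Yb replicate 1 or 3. Root Yb replicate 3 was near the controls on the axis of largest spread over all tested genes (45.3% of variance). It lay there at -50.8, beside -66.1 to -55.5 in controls and 9.2 and 9.9 in Yb replicates 1 and 2. On the next axis (14.5%) it lay at -55, away from the controls at 4.8 to 40.2.

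The sequences before the starts of HAK5, SKOR and GORK are printed because HAK5 was the member at 0 in every shoot library and SKOR and GORK were the members that changed in La-exposed roots. All 6 genes lie on the minus strand of the RefSeq copy of the TAIR10.1 build: HAK5 (AT4G13420) at chr4:7796782-7802251, AKT1 (AT2G26650) at chr2:11331850-11336738, AKT2 (AT4G22200) at chr4:11746490-11750698, KC1 (AT4G32650) at chr4:15751271-15755047, SKOR (AT3G02850) at chr3:619678-623739 and GORK (AT5G37500) at chr5:14889245-14895233. The windows hold the 250 bases before the annotated start, 5′ to 3′ on the gene's strand, at chr4:7802252-7802501 for HAK5, chr3:623740-623989 for SKOR and chr5:14895234-14895483 for GORK. Capitals mark matches, on either strand, to 4 motifs that were searched: the core of the abscisic acid response element ACGTG, the GCC box GCCGCC, the auxin response element TGTCTC, and P1BS, GNATATNC, the binding site of phosphate starvation regulators.
HAK5: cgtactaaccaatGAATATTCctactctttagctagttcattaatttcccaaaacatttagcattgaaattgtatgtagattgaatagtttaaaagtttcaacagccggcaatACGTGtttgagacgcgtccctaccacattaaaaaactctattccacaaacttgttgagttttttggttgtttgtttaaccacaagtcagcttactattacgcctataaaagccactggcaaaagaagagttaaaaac
SKOR: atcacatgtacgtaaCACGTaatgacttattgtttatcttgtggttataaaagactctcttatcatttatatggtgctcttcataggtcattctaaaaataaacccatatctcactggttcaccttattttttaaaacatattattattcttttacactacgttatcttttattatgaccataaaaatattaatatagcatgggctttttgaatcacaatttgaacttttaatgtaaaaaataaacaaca
GORK: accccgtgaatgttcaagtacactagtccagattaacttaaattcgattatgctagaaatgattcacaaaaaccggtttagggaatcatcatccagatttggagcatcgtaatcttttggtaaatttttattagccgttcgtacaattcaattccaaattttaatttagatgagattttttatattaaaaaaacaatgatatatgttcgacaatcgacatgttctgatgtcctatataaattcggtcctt

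The HAK5 window held the P1BS match GAATATTC, a palindrome that reads the same on both strands, 237 to 230 bases before the start, and ACGTG 137 to 133 bases before it. The SKOR window held 1 match to the abscisic acid core, read as CACGT on the gene's strand, 235 to 231 bases before the start. No match to any of the 4 motifs was found in the GORK window or in those of AKT1, AKT2 and KC1. Of 27443 protein-coding windows of the same length, 22.9% held ACGTG, 1.87% the GCC box, 10.9% the auxin element and 5.46% P1BS. These matches describe letters in the windows and were not tested for binding.

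The 6 genes stood at very different levels, and their order differed between the tissues. Per kilobase of exon in control roots, AKT1 was highest at 714 ± 122 (SD, n = 3, reads per size factor per kb), followed by KC1 at 513 ± 53.3 and SKOR at 314 ± 150. GORK followed at 105 ± 12, then HAK5 at 36.5 ± 14.4, and AKT2 was lowest at 13.0 ± 1.3. In control shoots AKT2 led at 246 ± 23.5 per kb, followed by GORK at 58.1 ± 5.26, AKT1 at 31.4 ± 8.43, KC1 at 16.7 ± 2.99 and SKOR at 2.8 ± 1.14, and HAK5 had no reads. In neither order did the ranges of neighbouring genes overlap across the 3 control libraries. The phloem channel thus headed the shoot list and closed the root list, while the stelar channel SKOR came next after AKT1 and KC1 in roots and was the lowest gene with reads in shoots.

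**Figure D1:**
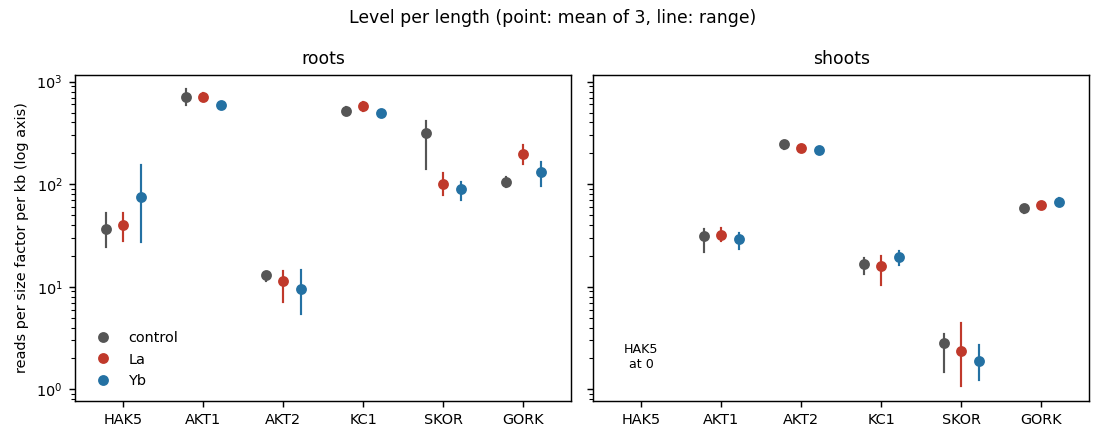
Level of each gene per kilobase of exon (reads per size factor per kb, log axis) in roots and shoots; points are means of 3 libraries and lines their range, coloured by group. AKT1 and KC1 are highest in roots and AKT2 in shoots, and the SKOR range in control roots lies above those of La and Yb.

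For La in roots, the outward channels moved in opposite directions: SKOR fell and GORK rose, while AKT1, KC1, AKT2 and HAK5 did not pass the test. That is 2 of 6 members, 1 higher and 1 lower, where 18.9% of all tested genes were called, 9.41% higher and 9.51% lower. The median log2 fold change of the 6 was 0.07 and their median absolute change 0.21, beside 0.24 over all tested genes.

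SKOR, the channel that loads potassium into the xylem, stood at 400, 1184 and 1083 reads per size factor in control roots and at 271, 224 and 367 in La-exposed roots. Every La library lay below every control library, but control replicate 1 lay much nearer to the exposed libraries than to the other two controls. SKOR fell by 1.51 ± 0.42 on the log2 scale (SE, n = 3 and 3), a fitted 2.84-fold decrease (95% interval of the log2 change -2.48 to -0.54, limma adjusted p = 0.0415). The call held in 9 of 10 other settings of the analysis, and it was lost when the 6 compared libraries were fitted alone (adjusted p = 0.0928). It was also lost without control replicate 2 (0.106), control replicate 3 (0.116), La replicate 1 (0.104), La replicate 2 (0.131) or La replicate 3 (0.0629), with log2 changes of -1.70 to -1.23 in these fits, and without control replicate 1 the change was -2.01. The adjusted p over these 16 limma, edgeR and DESeq2 fits ran from 4.36e-05 to 0.131.

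GORK, the outward channel of guard cells and root hairs, stood at 386, 348 and 437 in control roots and at 581, 905 and 688 in La-exposed roots. The groups did not overlap, and La replicate 2 was the highest of the 9 root libraries. GORK rose by 0.87 ± 0.21 on the log2 scale (SE, n = 3 and 3), a fitted 1.83-fold increase (95% interval of the log2 change 0.39 to 1.36, limma adjusted p = 0.0224). All 10 other settings kept the call. It was lost without control replicate 1 (adjusted p = 0.0627), control replicate 2 (0.0709), La replicate 2 (0.0672) or La replicate 3 (0.0589), in fits whose log2 changes were 0.70 to 0.90, and the adjusted p over all 16 fits by limma, edgeR and DESeq2 ran from 0.00064 to 0.0709.

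The ratio of GORK to SKOR transcripts per kilobase was 0.735, 0.224 and 0.307 in control roots and 1.63, 3.08 and 1.43 in La-exposed roots. SKOR was the more abundant of the pair per kb in every control root library and GORK in every La root library. In Yb-exposed roots the ratio was 2.34, 1.44 and 0.92, also above each control, with replicate 3 nearest to them. The ratio is given as a description and was not tested.

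**Figure D2:**
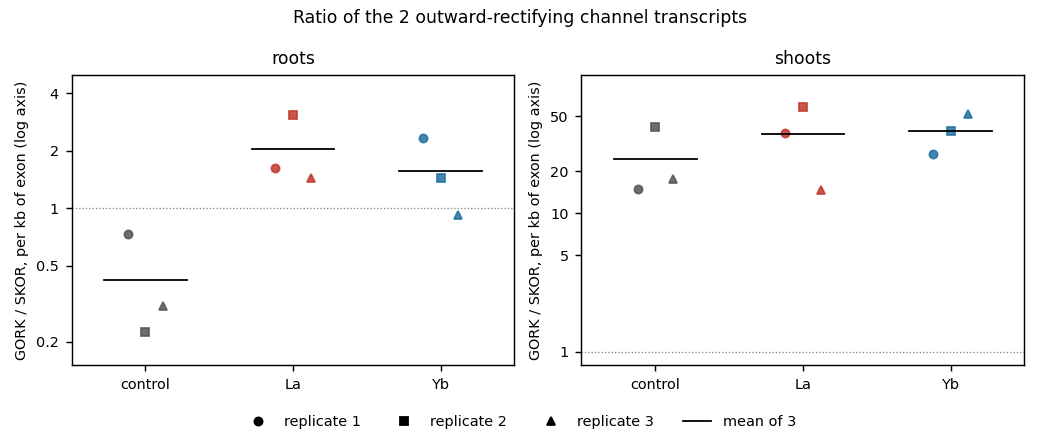
GORK divided by SKOR per kilobase of exon (log axis) in each root and shoot library by group; marker shape gives the replicate, the black line the mean of 3 and the dotted line a ratio of 1. In roots the 3 controls lie below 1, at 0.224 to 0.735, and the La libraries above it, at 1.43 to 3.08. In shoots the groups overlap.

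The inward side did not pass the test for La in roots. AKT1 stood at 1908, 2687 and 2249 in control roots and at 2205, 2082 and 2482 with La. The La values lay within the control range, and the fitted log2 difference was -0.01 ± 0.12 (SE, 95% interval -0.27 to 0.26, limma adjusted p = 0.983). KC1, its silent partner, stood at 1149, 1401 and 1217 in controls and at 1257, 1549 and 1456 with La, a log2 difference of 0.18 ± 0.10 (-0.05 to 0.40, limma adjusted p = 0.257). Their groups overlapped, and the interval of AKT1 leaves room for changes of up to 0.27 on the log2 scale in either direction. The ratio of KC1 to AKT1 per kilobase was 0.68 to 0.785 in controls, 0.744 to 0.97 with La and 0.806 to 0.85 with Yb.

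HAK5, the carrier that marks potassium shortage, stood at 141, 87.6 and 65.8 in control roots and at 74.9, 103 and 142 with La. The groups covered almost the same range, and the log2 difference was 0.14 ± 0.62 (SE, 95% interval -1.29 to 1.58, limma adjusted p = 0.902). That interval spans more than a 2-fold change either way, so a change of that size in HAK5 was not detectable with this spread. AKT2, the phloem channel, was low in roots at 37.7, 45.8 and 44.2 in controls and 41.1, 23.6 and 47.0 with La (log2 difference -0.24 ± 0.37, limma adjusted p = 0.695).

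**Figure D3:**
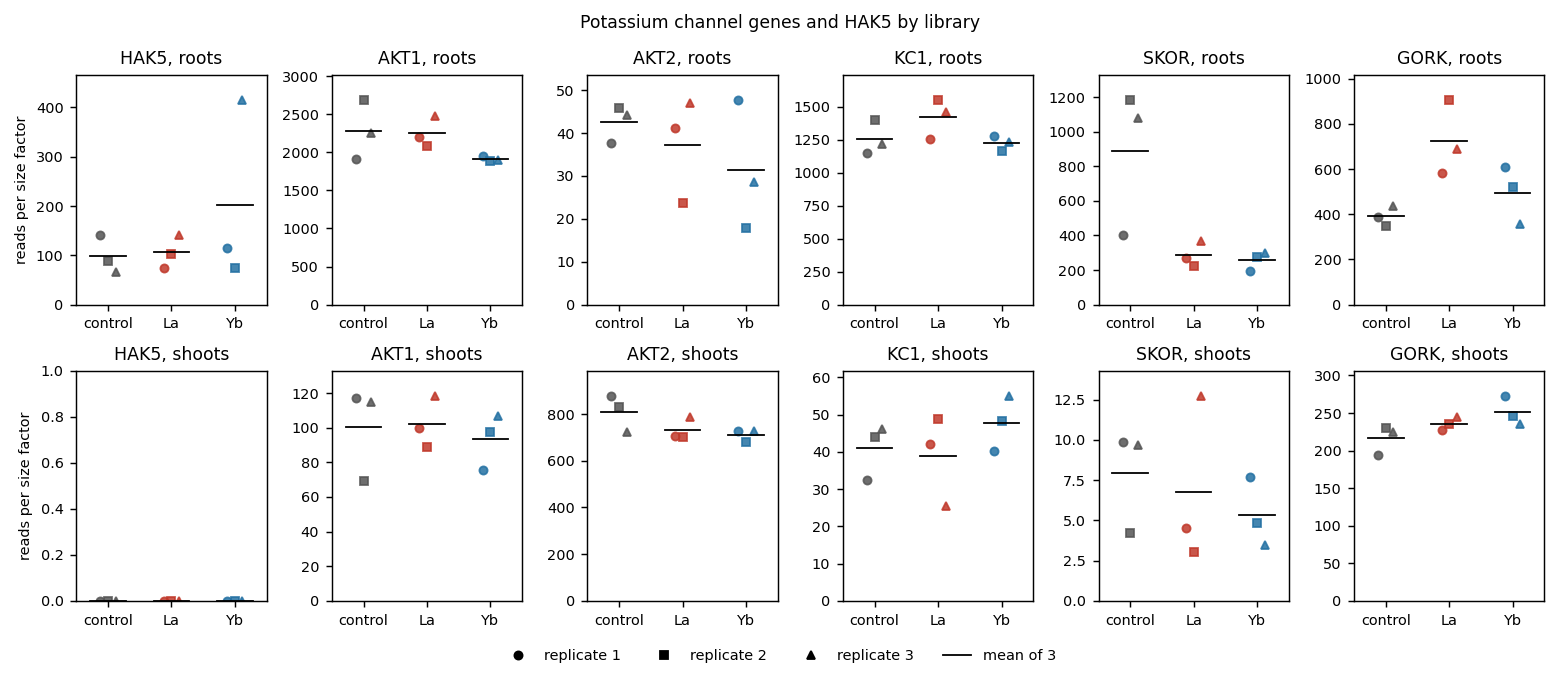
Reads per size factor of each of the 6 genes in every root and shoot library (vertical axes start at 0 and differ between panels); marker shape gives the replicate and the black line the mean of 3. In roots SKOR is high in control replicates 2 and 3 alone, GORK has its highest mean with La, and HAK5 is high in Yb replicate 3 alone, at 415.

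Yb-exposed roots had the lowest mean SKOR level, 256 ± 52.1 (SD, n = 3), yet no member passed the test against control, where 1.24% of tested genes were called by limma. SKOR was the only member with an unadjusted limma p under 0.05, beside 3770 of all 22729 tested genes. With edgeR 0 members were called as well, and DESeq2 called 1, SKOR. SKOR stood at 197, 276 and 296 with Yb, below all 3 controls. Its log2 difference was -1.66 ± 0.42 (SE, 95% interval -2.63 to -0.70, limma adjusted p = 0.113), no smaller than the difference seen with La. The La and Yb comparisons share the 3 control libraries, so their likeness in SKOR is not independent. SKOR passed for Yb with DESeq2 (log2 difference -1.79, adjusted p = 4.36e-05), with library weights in limma (-1.92, 0.0379) and without control replicate 1 (-2.16, 0.0166), and the adjusted p over the 16 fits by limma, edgeR and DESeq2 reached 0.364. Over all genes, 1026 were called with DESeq2, 1281 with library weights and 182 without control replicate 1, against 282 in the main fit.

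GORK stood at 607, 521 and 357 in Yb-exposed roots, which overlapped the controls through replicate 3. Its log2 difference was 0.32 ± 0.21 (SE, 95% interval -0.17 to 0.80, limma adjusted p = 0.505). HAK5 stood at 115, 73.5 and 415 with Yb. The first 2 values lay within the control range, and replicate 3, with 405 reads, was 3.6 times the group's median. The log2 difference of HAK5 was 0.70 ± 0.62 (SE, -0.73 to 2.14, limma adjusted p = 0.621), and without Yb replicate 3 it was -0.02.

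AKT1 stood at 1957, 1883 and 1894 with Yb, at or just below the low end of the control range (log2 difference -0.24 ± 0.12, 95% interval -0.50 to 0.02, limma adjusted p = 0.342). KC1 stood at 1275, 1165 and 1229, within the control range (-0.03 ± 0.10, limma adjusted p = 0.902). AKT2 stood at 47.7, 17.9 and 28.7 (-0.54 ± 0.37, limma adjusted p = 0.502), with groups that overlapped.

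La and Yb were also compared directly in roots, and none of the 6 members passed, where 6.45% of tested genes did by limma. GORK alone had an unadjusted limma p under 0.05, beside 5234 of all 22729 tested genes, and edgeR and DESeq2 called 0 members as well. The log2 difference of La over Yb was 0.56 ± 0.21 for GORK (SE, 95% interval 0.07 to 1.05, limma adjusted p = 0.159) and 0.15 ± 0.42 for SKOR (-0.81 to 1.12, adjusted p = 0.869). It was 0.24 ± 0.12 for AKT1 (-0.03 to 0.50, limma adjusted p = 0.273), whose La libraries all lay above the Yb libraries. KC1 differed by 0.21 ± 0.10 (-0.01 to 0.44), AKT2 by 0.30 ± 0.37 (-0.52 to 1.11) and HAK5 by -0.56 ± 0.62 (-1.99 to 0.88), all with overlapping groups. The rise of GORK with La and the lack of a call with Yb are therefore not shown to differ.

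**Figure D4:**
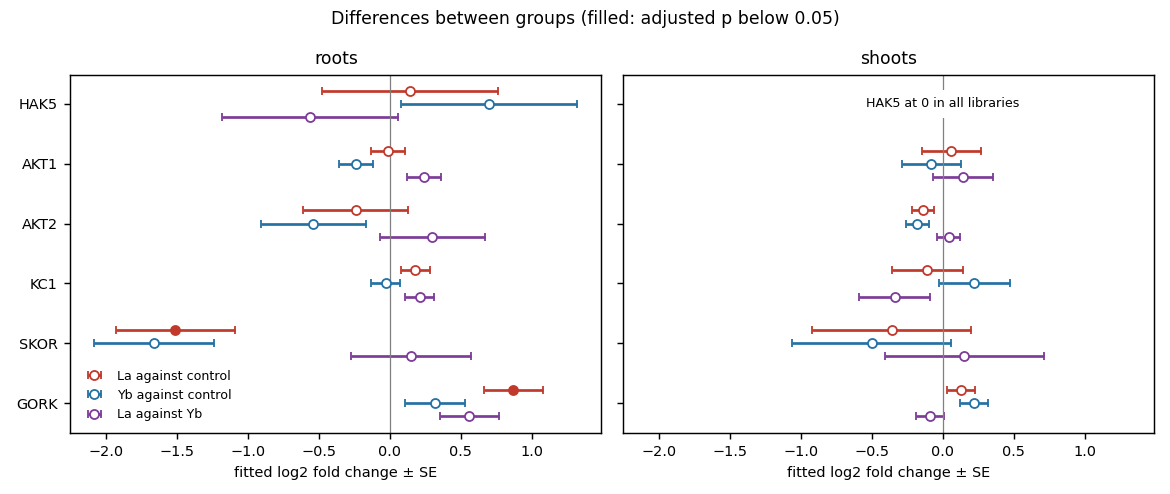
Fitted log2 fold changes of the 6 genes in roots and shoots (horizontal axis, point ± SE) for each of the 3 comparisons between groups; filled points have an adjusted p below 0.05. The filled points are SKOR at -1.51 and GORK at 0.87, both for La against control in roots.

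In shoots no member passed any comparison by limma, edgeR or DESeq2. HAK5 had 0 reads in all 9 shoot libraries and was not tested; a count of 0 allows up to 3 reads per library, counting error only. For the other 5, the calls were 0 for La over control, 0 for Yb over control and 0 between the metals, where 0.0865%, 0.041% and 0.0091% of tested genes were called. At an unadjusted limma p under 0.05 the counts were 0, 2 and 0, the pair being AKT2 and GORK with Yb. Of all 21967 tested genes, 1819, 1855 and 1488 were under it in the same comparisons.

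AKT2, the leading channel transcript of the shoot, stood at 875, 828 and 724 in controls, 705, 701 and 788 with La and 727, 680 and 729 with Yb. Its log2 difference was -0.14 ± 0.08 for La (SE, 95% interval -0.32 to 0.03, limma adjusted p = 0.691) and -0.18 ± 0.08 for Yb (-0.36 to 0.00, adjusted p = 0.577). The exposed libraries overlapped the lowest control in both comparisons. GORK stood at 194, 230 and 225 in control shoots, 227, 235 and 245 with La and 272, 246 and 236 with Yb. All Yb values lay above the controls, and the log2 difference was 0.22 ± 0.10 for Yb (0.01 to 0.43, limma adjusted p = 0.575) and 0.13 ± 0.10 for La (-0.08 to 0.34, adjusted p = 0.786). The 6 guard cell markers, which mark the cells where GORK works in leaves, summed to 25.8 to 51.5 in roots. In shoots they summed to 75281 to 83162 in controls, 72691 to 83539 with La and 72372 to 73405 with Yb, below every control. Most of the shoot sum came from TGG1 (47180 to 55568) and TGG2 (23171 to 29657), so it mainly follows those genes. None of the 6 passed for La or Yb in shoots. Their fitted log2 changes were negative for 5 and positive for 1 with Yb, and negative for 4 and positive for 2 with La.

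AKT1 stood at 69.3 to 118 across all 9 shoot libraries and KC1 at 25.4 to 54.9. The La and Yb log2 differences in shoots were 0.06 ± 0.21 and -0.08 ± 0.21 for AKT1 and -0.11 ± 0.25 and 0.22 ± 0.25 for KC1. SKOR was at the edge of detection in shoots, with 3 to 12 reads per library. Its log2 differences of -0.36 ± 0.56 (95% interval -1.56 to 0.85) for La and -0.50 ± 0.56 (-1.71 to 0.70) for Yb had intervals that spanned 0, and the groups overlapped.

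Whether a member responded differently in the tissues was tested as the La or Yb effect in roots minus that in shoots. Root and shoot libraries were treated as independent in these tests, and a pairing of the tissues by plant was not examined. No member passed in either case by limma or edgeR, where 6.86% of 20981 genes did for La and 0.31% for Yb. For GORK the La effect was larger in roots by 0.75 ± 0.24 on the log2 scale (SE, limma adjusted p = 0.0732, unadjusted p = 0.00664), and it passed without La replicate 1 of the roots (0.89, adjusted p = 0.0327, with a range of 0.0327 to 0.175 over 16 limma and edgeR fits). GORK was the only member with an unadjusted p under 0.05 in these tests. For SKOR the difference was -1.15 ± 0.69 for La (limma adjusted p = 0.364) and -1.16 ± 0.69 for Yb (adjusted p = 0.538). The fall of SKOR in roots is therefore not shown to differ from its course in shoots, where it had 3 to 12 reads per library.

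Markers of root cell types moved with La, and their part in the channel results was not tested. Of 13 root hair markers 11 fell and none rose for La against control (limma), with COW1, MRH6 and RHS10 at log2 changes of -4.35, -5.31 and -3.15. The summed root hair level was 6057 to 8541 in controls, 770 to 1436 with La and 3536, 2430 and 8322 in Yb replicates 1, 2 and 3. GORK, which works in root hairs among other cells, had its highest mean with La, the group with the lowest sums, although Yb replicate 1 at 607 lay above La replicate 1 at 581. Yb replicate 3, the library with the high HAK5 value and the lowest GORK value of its group, lay within the control range of the sum.

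Of 7 endodermis markers 5 fell with La, with CASP2, CASP4 and ESB1 at -2.08, -3.72 and -1.63, and their sum was 4031 to 6512 in controls, 986 to 2279 with La and 2697 to 5866 with Yb. SKOR is a gene of the stele. None of the 5 xylem markers passed with La or Yb. Their fitted log2 changes were negative for all 5 with La (median -0.4), and negative for 4 and positive for 1 with Yb. Their sum was 3772 to 5566 in controls, 2903 to 4051 with La and 2895 to 4319 with Yb. Of 6 phloem markers 2 rose, SUC2 by 0.39 and PP2-A1 by 0.78 on the log2 scale, and 1 fell, SWEET12, at -2.22, with a sum of 3420 to 3595 in controls, 4524 to 4799 with La and 3537 to 4353 with Yb. AKT2, a phloem gene, did not pass in roots. No marker of these 4 lists passed for Yb against control by limma.

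Beyond the 6 members, 66 other potassium genes were listed by family, and 59 were tested in roots. For La against control 3 rose, 8 fell and 48 did not pass, a share of 18.6% beside 18.9% of all tested genes, with a median absolute log2 change of 0.24, equal to that of all genes. In the main fit the share of potassium genes called was thus that of the background. The 6 with the smallest adjusted p were TPK2, RAP2.11, KUP2, ARF2, CBL10 and CBL9, and other genes are named below because a count was small, after their values were seen.

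RAP2.11, an ERF transcription factor that activates HAK5 under low potassium, stood at 180, 113 and 125 in control roots, 7.38, 4.37 and 11.5 with La and 48.6, 19.9 and 160 with Yb. The La libraries lay below all others, far below the controls but close to Yb replicate 2, and Yb replicate 3, the library with the high HAK5 value, was at the control level. HAK5 was at 65.8 to 141 in those controls and at 415 in Yb replicate 3. The summed root hair level was likewise lowest with La and within the control range in Yb replicate 3. A link between these genes was not tested. RAP2.11 fell with La by 4.15 ± 0.67 on the log2 scale, a fitted 17.7-fold decrease (limma adjusted p = 0.00466), and its La-to-Yb difference was -2.81 ± 0.67 (adjusted p = 0.0463). HAK5 itself did not pass in those comparisons. ARF2, an auxin response factor that represses HAK5, stood at 3363, 2930 and 3078 in controls and rose to 4174, 4176 and 3870 with La (log2 change 0.38 ± 0.08, limma adjusted p = 0.00991). RCI3, a peroxidase linked to HAK5 induction, was the third of the 6 tested genes in this list that passed, at -0.78 ± 0.21 (adjusted p = 0.0325).

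Among 16 protein regulators 2 fell with La and none rose. CBL9, a calcium sensor that recruits CIPK23 to AKT1, stood at 382, 465 and 380 in controls and 282, 272 and 304 with La (log2 change -0.51 ± 0.12, limma adjusted p = 0.0178). CBL10, a sensor that can inhibit AKT1, stood at 67.7, 55.8 and 63.7 in controls, 33.8, 37.6 and 30.7 with La and 57.2, 63.5 and 49.1 with Yb. CBL10 fell with La against control by 0.87 ± 0.19 (adjusted p = 0.0111) and against Yb by 0.72 ± 0.19 (adjusted p = 0.0486) in limma. CIPK23, looked at after its values were seen, stood at 2640, 4172 and 4066 in controls, 2596, 2236 and 2885 with La and 2394, 2674 and 2474 with Yb, without passing (-0.47 ± 0.17 for La, adjusted p = 0.0816). As for SKOR, control replicate 1 was the lowest control.

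Of the 12 other KUP/HAK/KT carriers 2 rose with La and none fell. KUP2, a carrier linked to cell expansion, stood at 421, 460 and 407 in controls and 672, 660 and 599 with La (log2 change 0.58 ± 0.11, limma adjusted p = 0.00532), and KUP9 rose by 0.57 ± 0.14 (adjusted p = 0.0192). Of 5 tested TPK and KCO3 channels 3 fell and none rose. TPK2, a channel of the vacuolar membrane family, stood at 72.1, 95.6 and 92.5 in controls, 34.8, 34.1 and 45.1 with La and 58.1, 48.6 and 53.2 with Yb (log2 change -1.18 ± 0.19 for La, limma adjusted p = 0.00338). TPK3 fell by 0.52 ± 0.16 (adjusted p = 0.0494) and KCO3 by 2.42 ± 0.63 (adjusted p = 0.0247), the latter from 10 to 27 reads to 1 to 5. KCO3 is a close relative of TPK2, so some reads could fit both genes. HTSeq is named for the counting, and how such reads were handled is not given in the sources used here.

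Of the 19 tested HKT1, NHX, KEA, CHX and NPF7.3 transporters, KEA6 fell with La, at -0.27 ± 0.07 (limma adjusted p = 0.026), and none rose. The single tested gene of the other Shaker channels did not pass. For Yb against control none of the 59 passed by limma, and 15 had an unadjusted p under 0.05, beside 3770 of all 22729 tested genes. DESeq2 called 3 of the 59, where it called 1026 genes in all. La and Yb differed in 3 of the 59, 5.08% beside 6.45% of all genes: RAP2.11, CBL10 and NHX6, an endosomal cation-proton antiporter, at 0.54 ± 0.11 (adjusted p = 0.0235). In shoots 0 of 58 passed in any comparison by limma, edgeR or DESeq2. An unadjusted limma p under 0.05 was found for 8, 6 and 2 of them for La, Yb and La against Yb. The counts over all 21967 tested genes were 1819, 1855 and 1488.

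**Figure D5:**
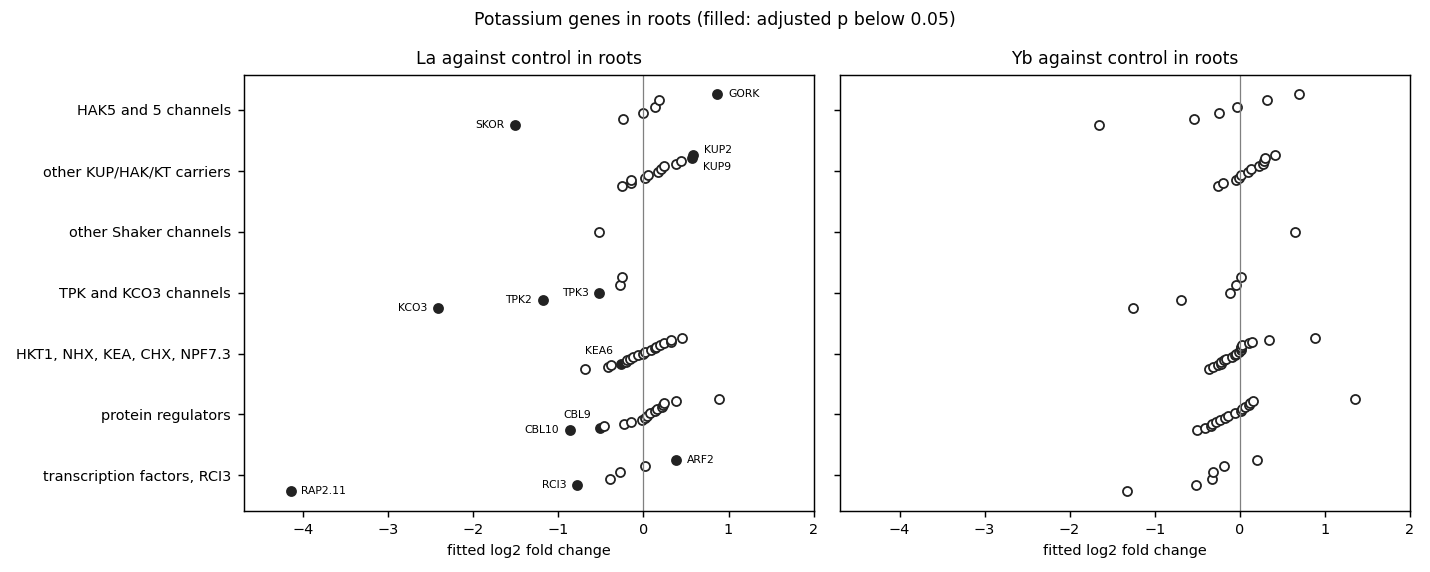
Fitted log2 fold changes in roots (horizontal axis) of the 6 members and of the other potassium genes by list, for La against control and Yb against control; filled points, named, have an adjusted p below 0.05. With La 2 members and 11 other genes are filled, RAP2.11 lies farthest out at -4.15, and with Yb none is filled.

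The genes whose root pattern was most like that of SKOR, GORK and HAK5 were found by the root mean square difference of log2 values over the 9 root libraries, each gene centred on its own control mean, among 20033 genes. They were chosen on these same libraries, so high or low libraries shared with the member follow from the choice. A gene without any change would score 1.38 against SKOR, 0.59 against GORK and 0.81 against HAK5, near the medians given below. For SKOR these were AT2G22122 (0.19), AT4G29905 (0.20) and RR5, a cytokinin response regulator (0.32), beside a median of 1.39 over all genes. RR5 stood at 363, 760 and 932 in controls, 301, 215 and 328 with La and 219, 186 and 302 with Yb. Like SKOR it was lower in control replicate 1 than in the other two controls.

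For GORK they were WRKY48 (0.12), AT1G64405 (0.13) and WRKY57 (0.13), beside a median of 0.63, and WRKY48 and WRKY57 are WRKY transcription factors. WRKY48 stood at 298, 303 and 351 in controls, 467, 805 and 535 with La and 497, 512 and 325 with Yb, with its peak in La replicate 2 as for GORK. For HAK5 they were RL3 (0.43), AT4G10500 (0.45) and AT1G60095 (0.48), beside a median of 0.85, and each of the 3 was highest in Yb replicate 3.

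The AKT1 locus overlaps KCS11 by 9 bases on the opposite strand, and SKOR overlaps AT3G02840 by 9 bases on the opposite strand. In the root libraries AT3G02840 stood at 8.64 to 47.1, far below SKOR, and KCS11 at 380 to 482, below AKT1. In the shoot libraries KCS11 stood at 398 to 538, above AKT1 at 69.3 to 118. AT3G02840 stood there at 4.56 to 105, a range that overlapped that of SKOR at 3.05 to 12.7. In shoot La replicate 1 both were at 4.56, and in shoot La replicate 3 AT3G02840 at 7.41 lay below SKOR at 12.7. Whether reads of these neighbours entered the values of AKT1 and SKOR was not tested. The libraries were stranded, while the strand setting of the counting is not given in the sources used here.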

How the data were processed

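RNA from roots and shoots was sequenced in 18 stranded, paired-end libraries, per the labels. Trimmomatic 0.36.1, TopHat2 2.1.1 and HTSeq 0.6.1p1 are named in the submitters' processing notes, with the build TAIR10, and the strand setting is not given in the sources used here. As deposited, the signal of a gene is its read count, which the authors divided by 1 size factor per library within each tissue: all values were whole multiples of the library's smallest value above 0 (within 0.001), although the tables are named for a length-normalized unit that the design had assumed. Each tissue was fitted alone with limma 3.58.1 (R 4.3.3; trend, robust) on log2(signal + 0.5), for genes with at least 1 in at least 3 libraries, with Benjamini-Hochberg adjustment over all genes tested and a threshold of 0.05. Fold changes on this scale understate those of low genes. Recovered reads were tested with edgeR 4.0.16 and DESeq2 1.42.0 as alternatives, and all were run on simulated data. The simulation gave every gene the same dispersion and held no deviating library. It therefore does not cover genes with such a library, among them SKOR and HAK5 in roots. Other alternatives were TMM and quantile scaling, a pseudocount of 2, other filters, library weights, the compared libraries alone, a replicate block and leaving out each library.

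The 6 members and all gene lists were chosen with earlier results of these data known. Named were all members, up to 6 other potassium genes per comparison and up to 3 markers per list by smallest adjusted p, and the 3 genes of most similar pattern with a mean of at least 10. The annotation, for names, lengths and positions, was the RefSeq copy of TAIR10.1, in which all 114 listed genes were matched. Within a tissue, same-numbered libraries did not deviate together (1 of 9 root pairs and 0 of 9 shoot pairs correlated above 0.1). Replicate numbers were therefore not used as pairs there. Root and shoot libraries of the same number were not compared in this way, and whether they came from the same plants was not examined. The labels do not say that replicates came from separate containers, so p-values measure the spread between these libraries, which may be technical.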

Additional observations from a re-analysis of the deposited data

How the results depend on the processing

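For La in roots, 9 of 10 other settings gave 2 called members, fitting the compared libraries alone gave 1 (GORK), and leaving out 1 library gave 0 to 1. For Yb in roots, DESeq2, library weights and the fit without control replicate 1 each gave 1 (SKOR) in place of 0, a range of 0 to 1. The La difference between tissues ranged from 0 to 1 with 1 library left out, and the other member counts stayed at 0. With the replicate block, 2 members passed for La in roots, SKOR at -1.51 ± 0.31 (limma adjusted p = 0.0225) and GORK at 0.87 ± 0.23 (0.0457), and the block changed no other member's call. Some members that were not called changed sign, most of them near 0 and others from further off, such as HAK5 for Yb in roots (0.70) and for La against Yb in roots (-0.56). With library weights these were AKT1 for La in roots (0.02) and in shoots (-0.07) and KC1 for La in shoots (0.05). With 1 library left out, log2 differences for La in roots ran from -0.13 to 0.12 (AKT1), -0.11 to 0.44 (HAK5) and -0.44 to 0.05 (AKT2). For Yb in roots they ran from -0.10 to 0.05 (KC1) and -0.02 to 1.22 (HAK5), and for La against Yb in roots from -0.04 to 0.32 (SKOR), -0.05 to 0.65 (AKT2) and -1.08 to 0.16 (HAK5). In shoots they ran from -0.19 to 0.19 (AKT1), -0.30 to 0.16 (KC1) and -0.90 to 0.04 (SKOR) for La, from -0.33 to 0.06 (AKT1) for Yb, and from -0.02 to 0.07 (AKT2), -0.40 to 0.55 (SKOR) and -0.01 to 0.25 (AKT1) for La against Yb. The tissue differences ran from -0.19 to 0.18 (AKT1) and -0.30 to 0.19 (AKT2) for La and from -0.07 to 0.32 (GORK) and -0.31 to 0.09 (AKT1) for Yb. The cause of these shifts was not tested. The other potassium genes called for La in roots were 17 with library weights and 6 without La replicate 2, against 11. For Yb they were 3 with DESeq2, 5 with library weights, 1 without control replicate 1 and 3 without Yb replicate 3, against 0, and for La against Yb 0 to 6, against 3. Over all genes the Yb counts in those fits were 1026, 1281, 182 and 1141, against 282. The all-gene counts for La against Yb ran from 250 to 2744, against 1466. For La against control in roots the all-gene count was 2588 without La replicate 2, against 4300. It was 3799 to 5178 over the 10 other settings, library weights among them. SKOR had 3 to 12 reads per shoot library, the fewest of the members tested.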

Other observations

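CHX17, a cation-proton exchanger gene of the potassium lists that is known from roots, was picked out here after its values were seen. It was low in shoots, at 4.94, 4.2 and 4.3 reads per size factor in controls, 9.12, 7.13 and 8.46 with La and 16.3, 14.5 and 12.2 with Yb, and the 3 groups did not overlap. With 4 to 19 reads per library it did not pass the test over all genes: the log2 difference was 0.81 ± 0.36 for La (limma adjusted p = 0.59) and 1.57 ± 0.36 for Yb (adjusted p = 0.219). In roots CHX17 stood at 830, 431 and 689 in controls, 943, 962 and 689 with La and 1155, 773 and 1727 with Yb, highest in Yb replicate 3 like HAK5, without passing (0.45 ± 0.34 for La, adjusted p = 0.408, and 0.88 ± 0.34 for Yb, adjusted p = 0.248).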
